A study of Mus musculus with 10 samples.

Results

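The metalloproteinases that cut the extracellular matrix, their tissue inhibitors and the related ADAMTS and ADAMTS-like genes were described in the left ventricle (LV) of mice with pressure overload and of sham-operated mice. The members were the genes named Mmp, Timp, Adamts or Adamtsl followed by a number, leaving out Adamts2, Adamts3 and Adamts14. This gave 48 of the 55401 genes in the tables: 23 MMP, 4 TIMP, 16 ADAMTS and 5 ADAMTS-like genes. RNA was sequenced from the LV of 10 wild-type mice at 4 weeks of age, 1 library per mouse. In 5 mice the ascending aorta had been constricted soon after birth (neonatal ascending aorta constriction, nAAC), and 5 had a sham operation. Both groups were WT mice of a C57BL/6 colony and were nursed by their mothers, no other agent or allele is named in the labels, and both sexes were placed in the groups at random. The sex of each mouse is not given here, so a balance of the sexes between the groups is not known. RNA came from bulk LV tissue, so a lower level from fewer cells of a type and one from less RNA per cell cannot be told apart.

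Matrix metalloproteinases (MMPs) are zinc enzymes that are made as inactive proenzymes and cleave collagens, gelatins, proteoglycans and other matrix proteins once the propeptide is removed. Tissue inhibitors of metalloproteinases (TIMPs) bind the active site of these enzymes. ADAMTS proteins are secreted zinc proteases with thrombospondin repeats, many of which cleave versican and related proteoglycans. ADAMTS-like proteins carry the repeats but no protease domain, and several of them bind fibrillin microfibrils. In the heart, many transcripts of these families come from fibroblasts and vascular cells, and turnover of the fibrillar collagen network around the myocytes depends on the balance of proteases and inhibitors. A transcript level says nothing of proenzyme activation or of inhibitor binding.

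Levels are given as FPKM, fragments per kilobase of transcript, scaled to the mapped fragments of the library, which may be compared between genes. The libraries corresponded to an estimated 4.86 to 6.82 gigabases of mapped sequence in nAAC and 5.06 to 5.24 in sham. Mitochondrial transcripts took 32.9 to 39.9% of TPM in nAAC and 33.7 to 49.8% in sham, and sham replicate 4 had the lowest share of its group. The log2 fold change (log2 FC, nAAC over sham) was taken on log2(FPKM + 1), which understates the change of genes with low levels, and was tested with limma over the 11867 genes whose mean FPKM reached 1. A gene was counted as a differentially expressed gene (DEG) when its adjusted p was below 0.05 and its log2 FC exceeded 1 in size. Over the 11867 genes the median log2 FC was 0.22 for the deposited FPKM and -0.00 under median-ratio scaling, in which each library is divided by the median of its genes' ratios to a common reference, so values under the latter scaling are given beside the members' calls. Cardiomyocyte markers, which were not chosen to tell ventricle from atrium, were present in every library. The summed FPKM of these 6 genes was 6929 to 9545 in nAAC and at least 9466 in sham.

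Of the 48 genes, 6 were listed at 0 in all 10 libraries: Mmp1a, Mmp1b, Mmp7, Mmp10, Mmp20 and Mmp21. Another 8 were above 0 in some libraries and 34 in every library. A mean FPKM of at least 1 over the 10 libraries was reached by 23 members, namely 7 of 23 MMP, 4 of 4 TIMP, 8 of 16 ADAMTS and 4 of 5 ADAMTS-like genes. Of those 23, 4 had a sham mean below 1 (Mmp3, Adamts8, Adamts20 and Adamtsl3), and none had an nAAC mean below 1. Members that were below 1 in sham could enter through a high level in nAAC, so the counts below describe the tested members and are not a share of the families. The members nearest to the limit were Adamts20 and Adamtsl3, each with a mean FPKM of 1.02, and Mmp19 just outside it, with 0.809.

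**Figure D1:**
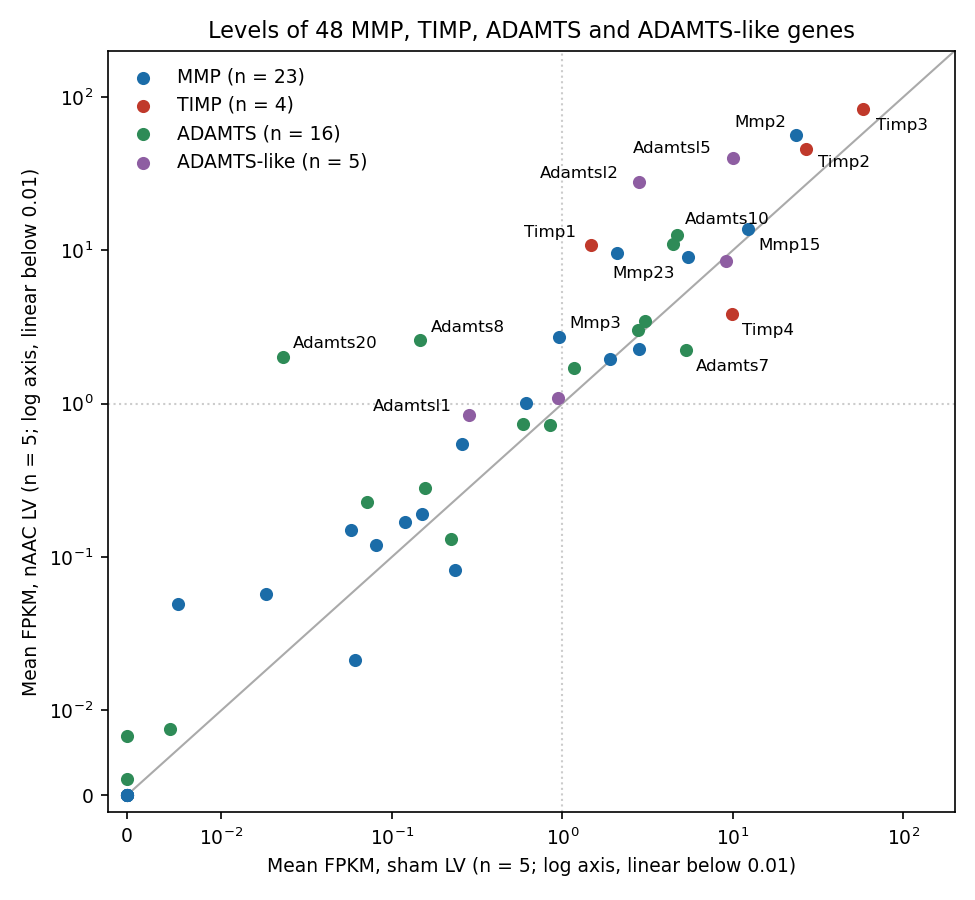
Mean FPKM of the 48 members in the sham LV (x axis) and the nAAC LV (y axis), 5 mice in each group, on log axes that are linear below 0.01; the grey line marks equal levels and the dotted lines an FPKM of 1. Adamts8, Adamts20, Mmp3, Adamtsl3 and Mmp19 lie in the upper left field, above 1 in nAAC and below 1 in sham, while Timp4 and Adamts7 lie below the line.

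Among the 23 tested members, 9 were up-regulated DEGs: Timp1, Mmp2, Mmp23, Adamts1, Adamts8, Adamts10, Adamts20, Adamtsl2 and Adamtsl5. Over all genes tested, 5.01% were up-regulated DEGs. Timp4 alone, 1 of the 23, was a down-regulated DEG, against 0.893% of all genes. By the adjusted p alone 12 members were higher in nAAC, which adds Mmp3, Mmp14 and Timp2, where 27.1% of all genes were, and 2 were lower, Timp4 and Adamts7, where 4.60% of all genes were. The other 9 tested members did not pass. In 13 members all 5 nAAC mice exceeded all 5 sham mice, against 18.9% of all genes, and in 2 every nAAC mouse lay below every sham mouse, against 3.46%. The median log2 FC of the 23 was 0.64, beside 0.22 over all genes tested. Under median-ratio scaling, which left 22 members above the limit, 6 were up-regulated DEGs (3.09% of all genes), 2 were down-regulated DEGs (1.76%), 11 were higher by the adjusted p alone (13.0%) and 3 were lower (12.1%), and their median log2 FC was 0.33.

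**Figure D2:**
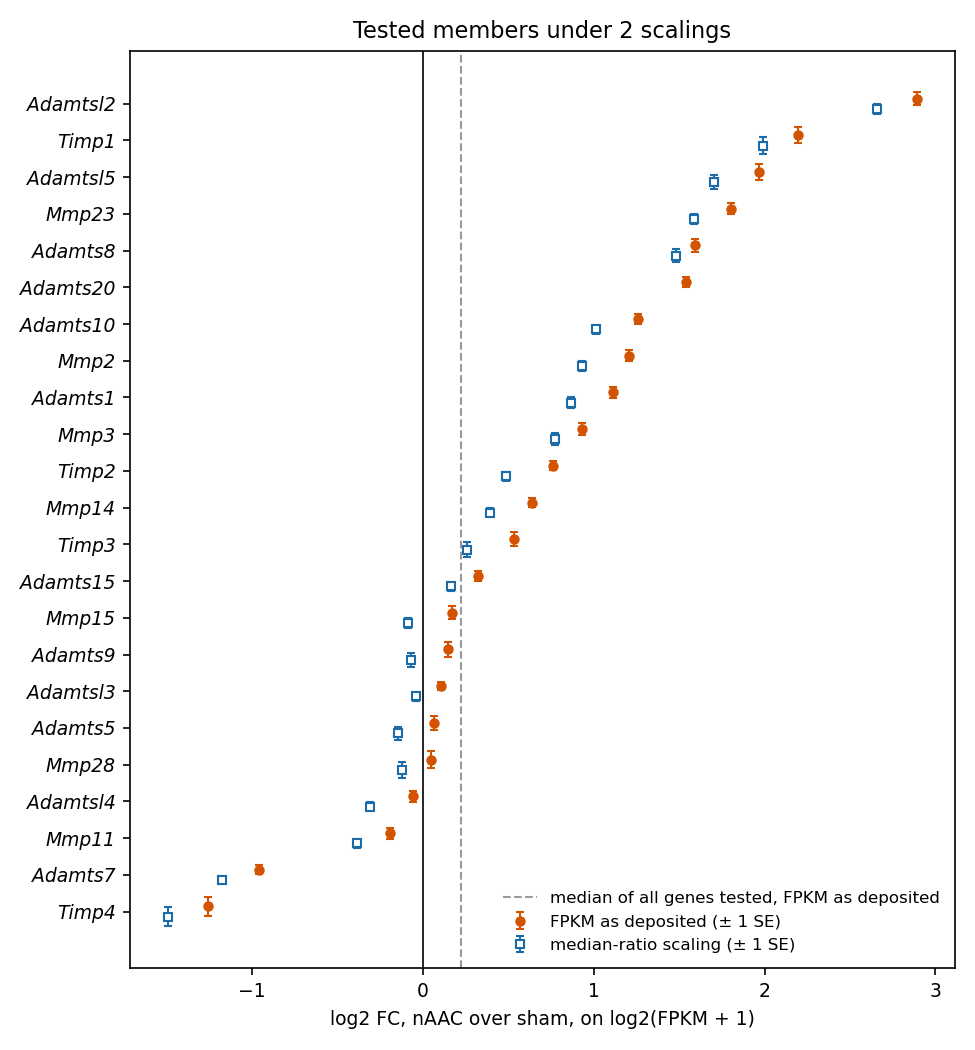
Log2 FC of nAAC over sham with its SE from limma for the 23 tested members, from the deposited FPKM (filled circles) and from FPKM scaled by the median ratio (open squares); the dashed line marks the median over the 11867 genes, 0.22. Adamtsl2 lies highest at 2.89 and Timp4 lowest at -1.26, and Adamts20 has no square because its mean fell below the filter under that scaling.

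The 4 inhibitors did not move together. Timp1, a secreted inhibitor of broad range that is induced in many injured tissues (ENSMUSG00000001131, chrX:20870166-20874735 in mm10, plus strand), had an FPKM of 18.4, 11.4, 7.98, 8.0 and 7.92 in nAAC replicates 1 to 5 and of 1.42, 1.06, 1.14, 2.24 and 1.48 in sham replicates 1 to 5. All nAAC mice lay above all sham mice, and nAAC replicate 1 was the highest. The mean rose from 1.47 ± 0.467 (SD, n = 5) to 10.7 ± 4.54 (SD, n = 5), a log2 FC of 2.20 (SE 0.21, limma adjusted p = 7.99e-06) and of 1.99 under median-ratio scaling. Timp4, the inhibitor with the most restricted tissue range and a known heart transcript (ENSMUSG00000030317, chr6:115241892-115252205, minus strand), had an FPKM of 5.43, 2.78, 1.12, 4.83 and 4.91 in nAAC and of 9.95, 7.74, 11.5, 8.12 and 11.8 in sham. Every nAAC mouse lay below every sham mouse. Its log2 FC was -1.26 (SE 0.27, limma adjusted p = 0.00326) and -1.49 under median-ratio scaling. Without nAAC replicate 3, the lowest mouse for this gene, the change of Timp4 was no longer past the size limit of a DEG, with a log2 FC of -0.99.

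Timp2 and Timp3 were the more abundant inhibitors. Timp2, which inhibits MMPs and also takes part in the activation of pro-MMP2 at the cell surface (ENSMUSG00000017466, chr11:118301069-118355740, minus strand), had an FPKM of 45.2, 39.5, 41.8, 52.8 and 50.5 in nAAC and of 27.7, 28.5, 26.8, 21.8 and 28.6 in sham. The groups did not overlap, and the log2 FC was 0.76 (SE 0.13, limma adjusted p = 6.05e-04), or 0.49 under median-ratio scaling. Timp3, which is bound to the matrix and also inhibits several ADAMTS proteases (ENSMUSG00000020044, chr10:86300372-86349506, plus strand), had an FPKM of 87.5, 73.4, 68.7, 105 and 80.7 in nAAC and of 59.6, 61.8, 68.2, 33.6 and 67.2 in sham. The highest sham mouse and the lowest nAAC mouse nearly met, at 68.2 and 68.7. Its log2 FC of 0.53 (SE 0.20) did not pass, with a limma adjusted p of 0.0526, and was 0.26 under median-ratio scaling. Sham replicate 4 was the lowest sham library in both genes. Without it the log2 FC was 0.69 for Timp2 (limma adjusted p = 5.95e-04) and 0.35 for Timp3 (limma adjusted p = 0.0529), whereas without sham replicate 5 Timp3 passed, with a limma adjusted p of 0.0435.

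Expressed as shares of the summed TIMP FPKM within a mouse, Timp1 went from 1.67% in sham to 7.52% in nAAC and Timp4 from 10.4% to 2.57%. Timp3 was the largest part of the TIMP sum in both groups. The annotated spans of 3 of the 4 genes overlap a synapsin gene on the opposite strand, Syn1 at Timp1, Syn3 at Timp3 and Syn2 at Timp4, and whether the counting used strand is not given in the sources used here. Shared exon sequence was 0 bases at Timp1, 1733 of 8144 bases at Timp3 and 90 of 5894 bases at Timp4. Syn3 stood at a mean FPKM of at most 0.155 in either group, and Syn2 was at 1.37 in nAAC and 0.670 in sham, the opposite order to Timp4.

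**Figure D3:**
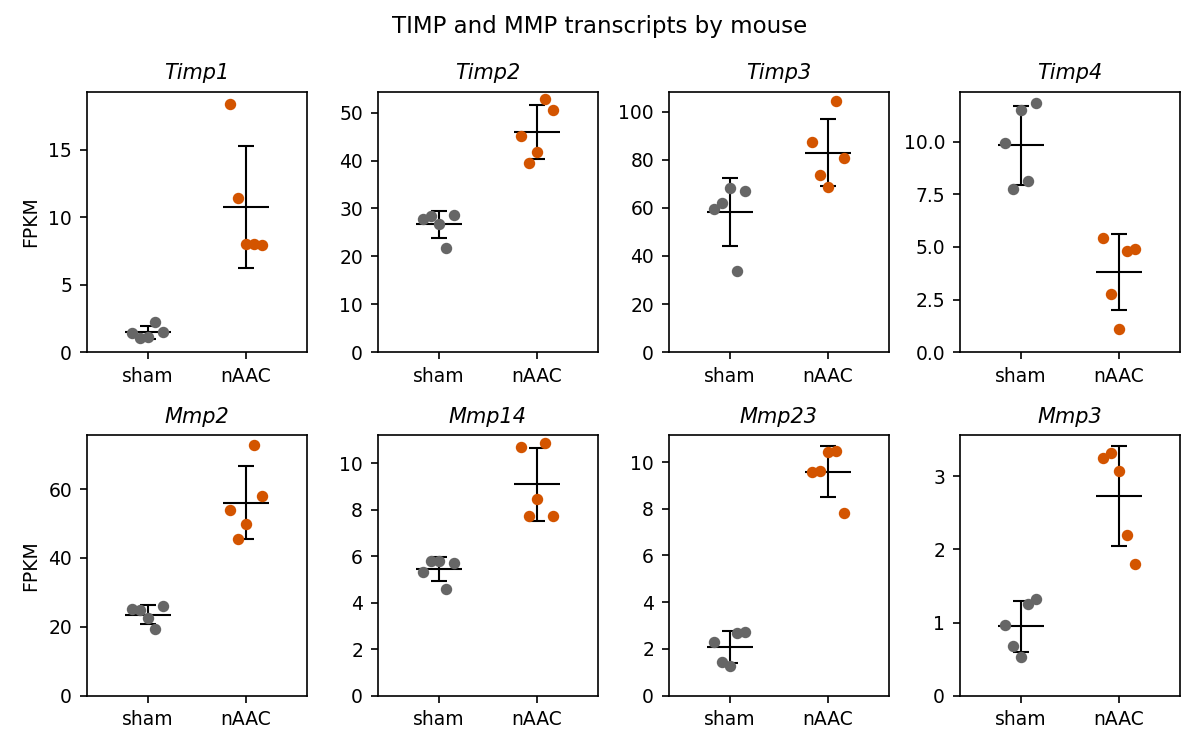
FPKM of the 4 TIMP genes and of Mmp2, Mmp14, Mmp23 and Mmp3 in each mouse, with sham in grey and nAAC in orange, 5 mice each; bars give the mean ± SD and every axis starts at 0. Timp4 is the single panel of the 8 in which all nAAC points lie below the sham points.

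Of 23 MMP genes 7 could be tested, and Mmp2, which encodes the gelatinase of fibroblasts and vascular cells, was the most abundant. Mmp2 (ENSMUSG00000031740, chr8:92827291-92853420, plus strand) had an FPKM of 53.8, 45.5, 49.97, 72.9 and 58.1 in nAAC and of 25.3, 24.8, 22.4, 19.3 and 26.0 in sham. The groups did not overlap, and their nearest mice stood at 45.5 and 26.0. The log2 FC was 1.21 (SE 0.14, limma adjusted p = 4.53e-05), and under median-ratio scaling it was 0.93 (adjusted p = 1.89e-04), still past the adjusted p but not past the size limit of a DEG. Mmp2 made up 57% of the summed MMP FPKM in nAAC and 46.8% in sham. Mmp9, the other gelatinase, which is typical of neutrophils and macrophages, had an FPKM of at most 0.323 in any mouse and was not tested.

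Mmp23, a membrane-anchored protease with an unusual domain order (ENSMUSG00000029061, chr4:155650655-155653384, minus strand), had an FPKM of 9.55, 9.62, 10.4, 10.5 and 7.81 in nAAC and of 2.28, 1.45, 1.28, 2.67 and 2.71 in sham. Its log2 FC of 1.81 (SE 0.15, limma adjusted p = 2.78e-06) was the largest of the MMP genes, and 1.59 under median-ratio scaling. Mmp14, the membrane-type enzyme that activates pro-MMP2 and itself cleaves fibrillar collagen (ENSMUSG00000000957, chr14:54431612-54445364, plus strand), had an FPKM of 10.7, 7.72, 8.47, 10.9 and 7.74 in nAAC and of 5.33, 5.79, 5.79, 4.58 and 5.72 in sham. No mice of the groups overlapped, and the change was smaller, with a log2 FC of 0.64 (limma adjusted p = 0.00182) and of 0.39 under median-ratio scaling (limma adjusted p = 0.0384). Mmp3, or stromelysin, which cleaves proteoglycans and activates other proenzymes, had an FPKM of 3.25, 3.31, 3.07, 2.20 and 1.80 in nAAC and of 0.970, 0.678, 0.529, 1.25 and 1.32 in sham. Here too the mice of the groups did not overlap, and the log2 FC was 0.93 (limma adjusted p = 7.64e-04), or 0.77 under median-ratio scaling.

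The other 3 tested MMP genes did not pass, and in each the groups overlapped. Mmp15, another membrane-type enzyme and the next most abundant MMP, had an FPKM of 9.62, 14.1, 13.9, 15.5 and 15.8 in nAAC and of 13.6, 11.4, 9.31, 10.1 and 16.8 in sham (log2 FC 0.17, and -0.09 under median-ratio scaling). Mmp28, epilysin, had an FPKM of 2.72, 1.25, 1.12, 2.36 and 2.27 in nAAC and of 2.18, 0.903, 1.73, 1.27 and 3.38 in sham, and its log2 FC of 0.05 changed sign with the scaling. It shares 466 of 3874 exon bases with 1700020L24Rik on the opposite strand, whose mean FPKM was 1.71 in nAAC and 1.19 in sham. Mmp11, a stromelysin activated inside the cell by furin, had an FPKM of 2.28, 2.002, 2.19, 2.38 and 2.48 in nAAC and of 2.31, 1.83, 2.36, 3.55 and 3.99 in sham. Its log2 FC was -0.19 (limma adjusted p = 0.349), but under median-ratio scaling it was -0.38 with a limma adjusted p of 0.0414, past the threshold. Mmp11 shares 155 of its 2778 exon bases with Chchd10 on the opposite strand, whose mean FPKM was 439 in nAAC and 440.2 in sham, so reads of the pair cannot be told apart without strand.

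Of the MMP genes 10 lie in a cluster on chromosome 9 (chr9:7272514-7699585, 427.1 kb in mm10), which holds the collagenases, Mmp3 and Mmp10, the elastase Mmp12 and the matrilysin Mmp7. Of these, 5 were listed at 0 in every library, and Mmp3 was the only cluster gene with a mean FPKM of at least 1. The highest value of any other cluster gene in any mouse was 0.3625, in Mmp13. Mmp13, an interstitial collagenase, ranged from 0 to 0.160 in nAAC and from 0.0774 to 0.362 in sham, and Mmp8, the neutrophil collagenase, from 0.0600 to 0.227 and from 0 to 0.186. Mmp12 reached at most 0.201 and Mmp27 at most 0.0943. None of these 4 passed the adjusted p without the filter on low levels.

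Several promoters in this cluster are known to carry a site for AP-1, the Fos and Jun dimer, close to the start, and the letters TGAGTCA (read on both strands) were searched in the 250 bases before the start in the RefSeq promoter table of GRCm38.p6. They stood in 7 of the 10 cluster genes and in 0 of the 23 members outside the cluster that have a promoter in the table, and 4.46% of the 32851 promoters of all genes hold them. A gene was counted when any of its promoters held the letters, whereas the 4.46% is a share of promoters. Mmp7 and Mmp12 each have a further promoter without the letters. In Mmp12 the letters lie before a second RefSeq start inside the gene and not before the start nearest to its annotated beginning. Windows of 41 bases from the other 6 genes are shown to set the site of Mmp3, the 1 cluster gene with a mean FPKM of at least 1, beside those of neighbours listed at 0 or at low levels. Capitals mark the site, and each sequence runs 5′ to 3′ toward the gene's start.
Mmp3: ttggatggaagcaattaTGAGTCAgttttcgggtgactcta
Mmp1a: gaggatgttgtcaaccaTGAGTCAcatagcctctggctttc
Mmp1b: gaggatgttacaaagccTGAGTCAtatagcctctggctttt
Mmp10: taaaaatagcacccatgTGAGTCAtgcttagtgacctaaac
Mmp7: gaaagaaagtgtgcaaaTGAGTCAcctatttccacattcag
Mmp13: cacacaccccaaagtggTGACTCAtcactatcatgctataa
The windows lie at chr9:7445759-7445799 (Mmp3), chr9:7464051-7464091 (Mmp1a), chr9:7388096-7388136 (Mmp1b, minus strand), chr9:7502262-7502302 (Mmp10), chr9:7692010-7692050 (Mmp7) and chr9:7272462-7272502 (Mmp13), all on the plus strand but for Mmp1b. The site began 46 bases before the start in Mmp3, 73 in Mmp1a, 93 in Mmp1b, 63 in Mmp10, 63 in Mmp7 and 35 in Mmp13, where it reads TGACTCA. The letters were thus present before Mmp3, before 4 genes listed at 0 in all libraries (Mmp1a, Mmp1b, Mmp7 and Mmp10) and before Mmp13.

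In the ADAMTS family, 8 of 16 members could be tested, of which 4 were up-regulated DEGs, 1 was lower by the adjusted p alone and 3 did not pass. Adamts1, a proteoglycanase that cleaves versican and aggrecan (ENSMUSG00000022893, chr16:85793827-85803113, minus strand), had an FPKM of 11.4, 9.56, 7.78, 15.2 and 10.9 in nAAC and of 3.75, 5.48, 4.37, 4.01 and 4.67 in sham. The groups did not overlap, and the log2 FC was 1.11 (SE 0.16, limma adjusted p = 1.69e-04). It was 0.87 under median-ratio scaling, past the adjusted p but below the size limit. Adamts10, which binds fibrillin and is altered in an inherited disorder of short stature and lens dislocation (ENSMUSG00000024299, chr17:33524204-33553782, plus strand), had an FPKM of 11.4, 10.1, 15.5, 13.7 and 12.3 in nAAC and of 5.18, 4.41, 3.58, 4.63 and 5.56 in sham. The groups did not overlap, and the log2 FC was 1.26 (SE 0.14, limma adjusted p = 1.88e-05), or 1.01 under median-ratio scaling.

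Adamts8 and Adamts20 were near the lower end in sham and above 1 in every nAAC mouse. Adamts8, a secreted protease able to cleave aggrecan and expressed in lung and heart (ENSMUSG00000031994, chr9:30942562-30963838, plus strand), had an FPKM of 1.90, 3.06, 4.35, 1.61 and 2.03 in nAAC and of 0.120, 0.163, 0.252, 0.0878 and 0.110 in sham. The lowest nAAC mouse lay above the highest sham mouse, and the ratio of the group means was 17.6. On the log2(FPKM + 1) scale the log2 FC was 1.60 (SE 0.17, limma adjusted p = 2.19e-05), and with a pseudocount of 0.1 it was 3.39. Adamts20, a versicanase known from coat pigmentation (ENSMUSG00000022449, chr15:94270163-94465418, minus strand), had an FPKM of 1.99, 2.25, 3.01, 1.41 and 1.45 in nAAC and of 0.0215, 0.0231, 0.0377, 0.0147 and 0.0170 in sham. Coverage of Adamts20 in sham was 0.0577 to 0.151 reads per base, so no fold is given. The log2 FC on log2(FPKM + 1) was 1.54 (SE 0.14, limma adjusted p = 4.19e-06), which rests on the filter, since its mean fell below 1 under median-ratio or upper-quartile scaling and without any single nAAC mouse. Under the lower filter of 0.1 and with none it was called.

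The same mice, nAAC replicates 2 and 3, had the 2 highest values of Adamts8 and Adamts20 and the 2 lowest nAAC values of Timp4. They were also the nAAC libraries with the most of 3 atrial transcripts. Myl7, the atrial myosin light chain, had an FPKM of 1.10, 54.0, 79.8, 11.9 and 0.654 in nAAC and of 22.4, 3.89, 3.66, 1.16 and 7.33 in sham, and Myl4 and Sln followed the same order in nAAC but for the 2 lowest mice of Sln. In nAAC replicates 1 and 5, in which Myl7 was below every sham library, Adamts8 stood at 1.90 and 2.03, above all sham mice, Adamts20 at 1.99 and 1.45, also above them, and Timp4 at 5.43 and 4.91, below all sham mice. With nAAC replicates 2 and 3 left out and the filter lowered to a mean of 0.1, the log2 FC was 1.31 for Adamts8 (limma adjusted p = 1.17e-05) and 1.35 for Adamts20 (limma adjusted p = 7.73e-06), and both remained DEGs. With the usual filter neither could then be tested, and 7 members were up-regulated DEGs. Timp4 had a log2 FC of -0.82 without these 2 mice (limma adjusted p = 0.00489), past the adjusted p but not the size limit, so that 0 members were down-regulated DEGs. Leaving out these 2 mice was chosen after the data were seen. Whether atrial tissue in the samples had a part in the values of these 3 genes was not tested.

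Adamts7, which cleaves cartilage oligomeric matrix protein and is known from vascular smooth muscle (ENSMUSG00000032363, chr9:90163069-90208071, plus strand), went the other way. Its FPKM was 1.65, 2.38, 1.85, 2.502 and 2.82 in nAAC and 5.44, 4.93, 4.70, 4.83 and 6.46 in sham. Every nAAC mouse lay below every sham mouse, with a log2 FC of -0.96 (SE 0.13, limma adjusted p = 1.07e-04) and of -1.17 under median-ratio scaling, where it was a DEG. In sham it was the largest part of the summed ADAMTS FPKM, at 22.6%. Adamts7 shares 122 of 6282 exon bases with Tbc1d2b on the opposite strand, whose mean FPKM was 4.87 in nAAC and 2.82 in sham. Adamts12, the other enzyme that cleaves the same protein, was below the filter, with an FPKM of 0.796, 0.701, 0.468, 0.924 and 0.738 in nAAC and of 0.718, 1.43, 1.15, 0.223 and 0.693 in sham, and the groups overlapped.

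The other tested proteoglycanases, Adamts5, Adamts9 and Adamts15, did not pass. Adamts5, the main aggrecanase of mouse cartilage, had an FPKM of 3.41, 2.24, 1.57, 4.50 and 3.46 in nAAC and of 2.64, 2.78, 3.15, 1.97 and 3.24 in sham (log2 FC 0.06, and -0.15 under median-ratio scaling). Adamts9, a versicanase of the developing heart and vessels, had an FPKM of 3.70, 2.65, 2.24, 4.90 and 3.86 in nAAC and of 2.71, 4.21, 3.22, 1.67 and 3.38 in sham (log2 FC 0.15, and -0.07 under median-ratio scaling). Adamts15 had an FPKM of 1.44, 2.22, 1.67, 1.44 and 1.72 in nAAC and of 1.47, 0.977, 0.869, 0.893 and 1.63 in sham, with a log2 FC of 0.32 and a limma adjusted p of 0.0771 that fell to 0.0323 without sham replicate 5. Adamts1 and Adamts5 are neighbours on chromosome 16, with a gap of 53059 bases and 1 other annotated gene between them, and Adamts8 and Adamts15 are neighbours on chromosome 9, with a gap of 20109 bases. In each pair 1 gene was a DEG and the other did not pass, and the difference between the neighbours was not tested.

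**Figure D4:**
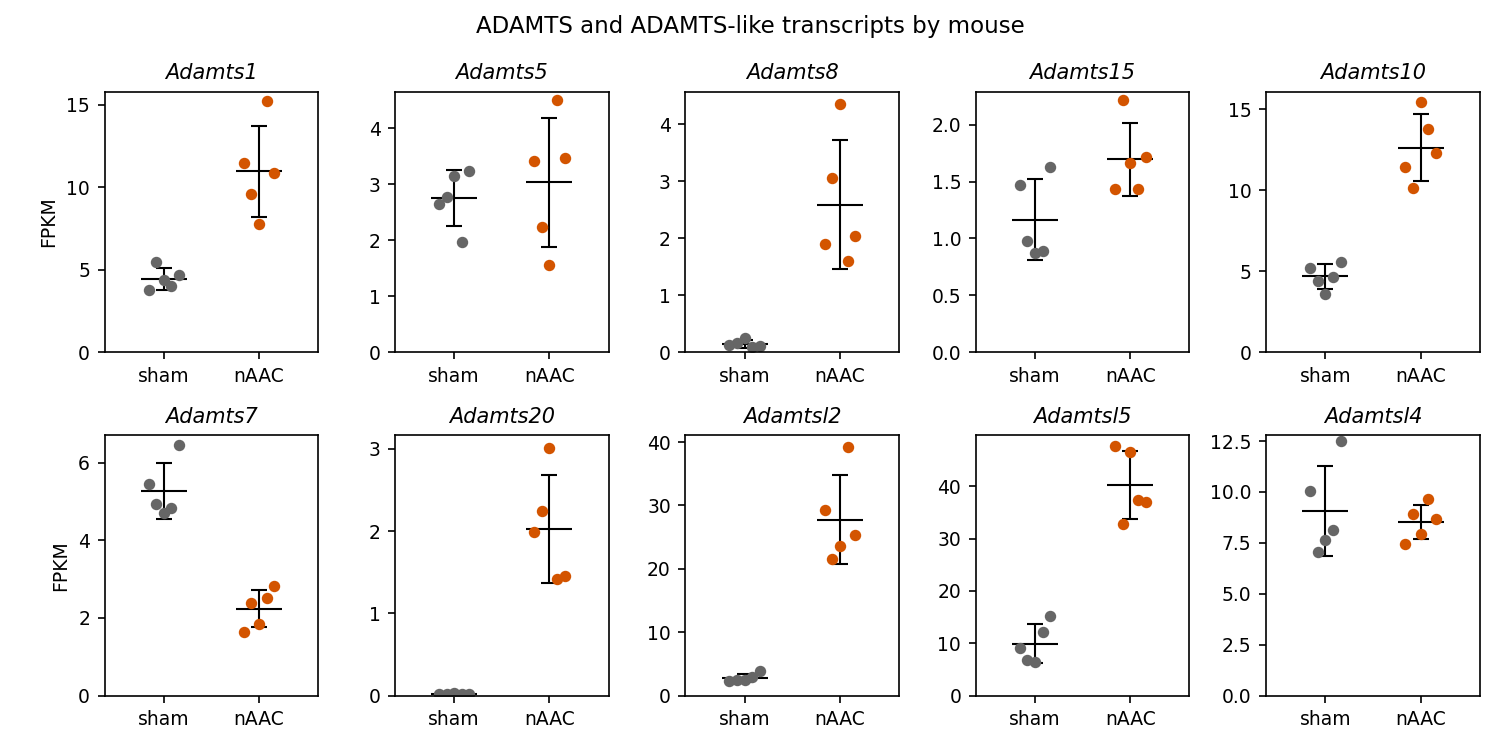
FPKM of 7 ADAMTS and 3 ADAMTS-like genes in each mouse, with sham in grey and nAAC in orange, 5 mice each; bars give the mean ± SD and every axis starts at 0. The neighbours Adamts1 and Adamts5, and Adamts8 and Adamts15, stand side by side, and Adamts7 is the panel in which all nAAC points lie below the sham points.

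The ADAMTS-like genes held the largest log2 FC of the 23 tested members on the log2(FPKM + 1) scale, that of Adamtsl2, while with a pseudocount of 0.1 Adamts20 (4.06) and Adamts8 (3.39) exceeded it (3.24). Adamtsl2, whose product binds fibrillin and a latent TGF-β binding protein (ENSMUSG00000036040, chr2:27079379-27108981, plus strand), had an FPKM of 29.2, 21.5, 23.6, 39.2 and 25.4 in nAAC and of 2.35, 2.46, 2.45, 2.96 and 3.94 in sham. The mean rose from 2.83 ± 0.664 (SD, n = 5) to 27.8 ± 6.98 (SD, n = 5), and the lowest nAAC mouse stood at 21.5 against 3.94 for the highest sham mouse. The log2 FC was 2.89 (SE 0.17, limma adjusted p = 1.31e-07), or 2.66 under median-ratio scaling. Adamtsl5, which also binds fibrillin (ENSMUSG00000043822, chr10:80339110-80348412, minus strand), had an FPKM of 47.6, 32.8, 46.5, 37.4 and 37.0 in nAAC and of 9.12, 6.73, 6.47, 12.2 and 15.2 in sham. The groups did not overlap, and the log2 FC was 1.97 (SE 0.21, limma adjusted p = 1.75e-05), or 1.70 under median-ratio scaling.

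Adamtsl4 and Adamtsl3 did not pass. Adamtsl4, known from inherited lens dislocation, had an FPKM of 7.45, 8.90, 7.95, 9.66 and 8.67 in nAAC and of 10.03, 7.07, 7.62, 8.12 and 12.5 in sham (log2 FC -0.06, and -0.31 under median-ratio scaling). Adamtsl3 had an FPKM of 1.10, 0.810, 0.918, 1.29 and 1.35 in nAAC and of 0.918, 1.06, 1.29, 0.709 and 0.753 in sham (log2 FC 0.11). In both genes the groups overlapped.

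Below the filter, 19 members had an FPKM above 0 in at least 1 library, and a fit without the filter called 4 of them higher in nAAC and 0 lower, where 11.6% and 2.13% of the 29309 genes of that fit were called. Those shares also cover the 11867 genes above the filter. The share among genes below it is not given here, so the 4 calls have no like background. Adamtsl1 had an FPKM of 1.29, 0.628, 0.811, 0.871 and 0.596 in nAAC and of 0.470, 0.168, 0.155, 0.150 and 0.476 in sham (limma adjusted p = 0.0195). Mmp17, a membrane-type enzyme, had an FPKM of 0.410, 0.390, 0.513, 0.758 and 0.665 in nAAC and of 0.324, 0.207, 0.160, 0.216 and 0.379 in sham (limma adjusted p = 0.0347), and with a pseudocount of 0.1 its adjusted p was 0.0502. In both genes the groups did not overlap. Mmp24 and Mmp25, 2 further membrane-type enzymes, were also called, at levels of at most 0.0686. Mmp24 had an FPKM of 0.0484, 0.0465, 0.0664, 0.0606 and 0.0258 in nAAC and of 0.0145, 0, 0.0126, 0 and 0 in sham, and Mmp25 of 0.0380, 0.0515, 0.0661, 0.0686 and 0.0637 in nAAC and of 0, 0.0286, 0.0272, 0 and 0.0357 in sham. Mmp24 shares 637 of 4683 exon bases with BC029722 on the opposite strand, at a mean FPKM of 15.0 in nAAC and 8.68 in sham. Mmp19, at 1.25, 1.02, 0.471, 1.41 and 0.870 in nAAC and 0.554, 0.580, 0.678, 0.453 and 0.810 in sham, was not called, nor were the other 14. Mmp19 shares 789 of 3533 exon bases with Tmem198b on the opposite strand, at a mean FPKM of 3.165 in nAAC and 2.605 in sham. Adamts6, a relative of Adamts10, ranged from 0.601 to 0.921 in nAAC and from 0.238 to 0.798 in sham. Mmp16, Adamts4, Adamts17 and Adamts19 reached at most 0.459 in any mouse, and Adamts13, which cleaves von Willebrand factor, Adamts16 and Adamts18 were above 0 in at most 2 libraries.

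As sums within a mouse, all 4 families stood higher in nAAC. Summed FPKM was 97.8 ± 13.4 (SD, n = 5) in nAAC and 50.5 ± 7.24 in sham for the MMP genes, 143.5 ± 20.8 and 96.1 ± 17.6 for the TIMP genes, 40.8 ± 4.27 and 23.4 ± 3.06 for the ADAMTS genes and 78.5 ± 9.88 and 23.1 ± 6.19 for the ADAMTS-like genes. In none of the 4 did the ranges of the groups overlap, but under median-ratio scaling the TIMP sums did, at 112.6 to 152.6 in nAAC and 69.2 to 127.3 in sham, and the other 3 did not. In nAAC a few genes led each sum: Mmp2, Timp3 and Timp2, Adamts10 and Adamts1, and Adamtsl5 and Adamtsl2. The ratio of the TIMP sum to the MMP sum, which does not depend on the scaling of a library, was 1.66, 1.49, 1.31, 1.42 and 1.47 in nAAC and 1.85, 2.04, 2.37, 1.504 and 1.77 in sham, and its ranges overlapped. Within the groups, nAAC replicate 4 was the highest nAAC library in 10 of the 23 tested members, and sham replicate 5 was the highest sham library in 15. Sham replicate 4 was the lowest sham library in 9. By the median ratio these 3 libraries had a factor of 1.23, 1.03 and 0.951, against 0.846 to 0.863 in the other 3 sham libraries and 1.03 to 1.12 in the other 4 nAAC libraries.

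Promoter sequences of 250 bases are shown for 4 members, the inhibitors that moved in opposite directions, Adamtsl2 with the largest log2 FC on log2(FPKM + 1), and Adamts20. Capitals mark matches on either strand to GCGTG, the core of the dioxin response element to which the aryl hydrocarbon receptor binds, to TATAAA or to GAGGAA, and no match shares a base with another. Each runs 5′ to 3′ and ends at the last base before the RefSeq start.
Timp1: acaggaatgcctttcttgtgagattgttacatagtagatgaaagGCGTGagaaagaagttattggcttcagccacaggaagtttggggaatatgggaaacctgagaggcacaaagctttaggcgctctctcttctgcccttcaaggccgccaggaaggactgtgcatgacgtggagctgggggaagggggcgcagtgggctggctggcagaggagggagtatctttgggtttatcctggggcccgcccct
Timp4: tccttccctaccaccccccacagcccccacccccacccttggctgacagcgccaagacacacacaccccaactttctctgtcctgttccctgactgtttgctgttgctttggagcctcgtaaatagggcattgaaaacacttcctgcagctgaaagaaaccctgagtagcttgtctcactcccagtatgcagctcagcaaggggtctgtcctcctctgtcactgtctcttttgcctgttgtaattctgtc
Adamtsl2: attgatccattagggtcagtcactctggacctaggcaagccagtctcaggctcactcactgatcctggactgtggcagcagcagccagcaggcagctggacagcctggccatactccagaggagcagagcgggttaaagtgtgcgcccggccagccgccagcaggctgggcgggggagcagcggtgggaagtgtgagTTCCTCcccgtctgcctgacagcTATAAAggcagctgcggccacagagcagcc
Adamts20: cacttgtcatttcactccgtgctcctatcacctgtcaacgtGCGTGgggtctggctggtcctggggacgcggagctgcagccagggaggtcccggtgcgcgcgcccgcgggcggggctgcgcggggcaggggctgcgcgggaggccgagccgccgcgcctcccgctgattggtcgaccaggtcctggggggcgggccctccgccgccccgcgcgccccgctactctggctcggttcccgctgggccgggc
They lie at chrX:20869916-20870165 (Timp1, plus strand), chr6:115252206-115252455 (Timp4, minus strand), chr2:27079129-27079378 (Adamtsl2, plus strand) and chr15:94404351-94404600 (Adamts20, minus strand) in GRCm38.p6, and the RefSeq start of Adamts20 falls inside the span that the tables give for the gene. GCGTG stood in 8 of the 18 promoters of the 17 tested members that have a promoter in the table, beside 28.2% of all promoters. The 8 genes were Timp1, Timp2, Timp3, Adamts1, Adamts9, Adamts20, Adamtsl4 and Adamtsl5. These 8 include 4 up-regulated DEGs and 3 genes that did not pass. Among the tested members with a promoter but without GCGTG, Mmp23 and Adamtsl2 were up-regulated DEGs. TATAAA was found in Adamts1, Adamtsl2 and Mmp3 (12.4% of all promoters), and GAGGAA in Adamtsl2 (23.3%).

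The substrates and partners of these proteases were read from lists, and the shares of all genes given above (5.01% up-regulated DEGs, 27.1% higher by the adjusted p, or 3.09% and 13.0% under median-ratio scaling) stand beside each count. Of 14 tested matrix substrates, 12 were up-regulated DEGs, or 10 under median-ratio scaling, with Comp, the protein cleaved by the Adamts7 and Adamts12 products, at a log2 FC of 3.67 (limma adjusted p = 5.33e-07), Col1a1 at 2.09 and Fn1 at 2.01. Thbs2, named after its value was seen, was the 1 substrate that was lower, with a log2 FC of -0.69. Of 5 tested activators of proenzymes, 2 were higher by the adjusted p, Plat and Plau, the plasminogen activators, at a log2 FC of 0.66 and 0.34, and Plat alone passed under median-ratio scaling. Among inhibitors and clearance receptors, Lrp1, the receptor that clears proteases and TIMPs, was higher at 1.69 and Papln at 1.04. Of 5 tested ADAM proteases 3 were higher, Adam9 at 1.06, Adam19 at 0.88 and Adam15 at 0.69, and under median-ratio scaling 3 passed as well. Of 9 other matrix proteases 4 were higher and 1 lower, or 2 and 1 under median-ratio scaling, with Bmp1 at 0.87, Ctsk at 0.83 and Ctsd at 0.73 the largest, of which Ctsd did not pass under that scaling. Of the procollagen N-proteinases left out of the members, 2 of 3 were tested, and Adamts2 was higher at 1.59.

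Markers of the cell types that could carry these transcripts moved as follows by the adjusted p, where 27.1% of all genes were higher and 4.60% lower (13.0% and 12.1% under median-ratio scaling), and their part in the members' values was not tested. Of 7 fibroblast markers 4 were higher in nAAC, or 2 under median-ratio scaling, with a summed FPKM of 895.2 to 1319 in nAAC and 632.1 to 892.4 in sham. Of 4 myofibroblast markers 4 were higher, or 3 under median-ratio scaling, which drops Acta2. They were led by Postn at a log2 FC of 3.78, with sums of 172.8 to 319.9 and 36.0 to 63.8. Of 5 mural markers 3 were higher, or 2 under median-ratio scaling (sums of 170.3 to 264.6 and 136.5 to 239.2). Of 7 macrophage markers 2 were higher, or 1 (139.9 to 280.8 and 93.2 to 199.5), and of 5 endothelial markers 1, or 0 (132.6 to 243.7 and 124.7 to 199.2). Both tested neutrophil markers, S100a8 and S100a9, did not pass, Ly6g was at 0 in every library, and the sums of 7 markers were 2.81 to 11.8 and 0.0392 to 13.8. Of 3 tested cartilage and valve markers 2 were higher under both scalings, Comp and Sox9, with sums of 16.2 to 45.4 and 1.004 to 3.001. Of 6 cardiomyocyte markers 1 was higher and 2 were lower, Pln and Tnni3, or 1 and 3 under median-ratio scaling. Of 4 atrial markers 1 was higher, Nppa, which ventricles under load also express, and the other 3 spread widely within nAAC, with Myl7 from 0.654 to 79.8, Myl4 from 1.34 to 127.7 and Sln from 0 to 19.4, against 1.16 to 22.4, 1.82 to 17.8 and 0.0771 to 4.62 in sham. Of 5 erythroid and 4 epicardial markers 0 passed.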

How the data were processed

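RNA was sequenced from LV tissue of 5 nAAC and 5 sham mice with NEBNext Ultra libraries of Trizol-extracted RNA. The aligner, quantification tool and strand use are not given in the sources used here. Each library's table, deposited by the authors, holds coverage (mean reads per base of a gene), FPKM (coverage normalized for depth) and TPM (FPKM rescaled to a fixed sum). The build mm10 is named in the submitters' processing notes, and the coordinates of all 48 members equal those of GENCODE M21. Rows with a repeated gene identifier were summed.

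The groups were taken from the sample titles. FPKM was tested as log2(FPKM + 1) with limma 3.58.1 in R 4.3.3 (empirical Bayes with trend, Benjamini-Hochberg adjustment) over 11867 genes whose mean FPKM reached 1, two-sided and without covariates, and the procedure was tested on simulated data. The tables hold no counts and do not show the sampling error of low genes, so gigabases were estimated from coverage and length. The alternatives tried were scaling by the median ratio or by the upper quartile, TPM, a pseudocount of 0.1, a filter of 0.1 or none, the Xist level as a covariate, a replicate block, and each library left out. The fit with no filter and a pseudocount of 0.1 and the fits without nAAC replicates 2 and 3 were added after the data were seen. Each tested member was named with its value in every mouse, as was any member below the filter that reached 1 in a mouse or passed without the filter, and at most the 3 largest changes of each list were named. The count for the list of inhibitors and clearance receptors is not reported here. Members, lists and motifs were chosen with earlier results of these data known. Promoter sequences were matched by symbol for 33 of 48 members to the RefSeq table of GRCm38.p6, and the 50 bases after the start were left out. One library was made per mouse, so p-values measure the spread between mice of a group.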

Additional observations from a re-analysis of the deposited data

Results flagged for a closer look

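In 58 sets of 5 mice (each member given with its value in every mouse, in each group), the gap between the most extreme mouse and its nearest neighbour was set against the range of the 5, and 3 sets exceeded the critical share of 0.71, where chance alone gives about 2.9. Timp3 was lowest in sham replicate 4, at an FPKM of 33.6 with the next mouse at 59.6, a gap share of 0.809. Timp2 was lowest in the same mouse, at 21.8 with the next at 26.8, a gap share of 0.767. Mmp15 was lowest in nAAC replicate 1, at 9.62 with the next at 13.9, a gap share of 0.742. Without sham replicate 4 the call of Timp2 and the missed call of Timp3 both stood as before.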

How the results depend on the processing

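The number of up-regulated members, 9, was 6 under median-ratio scaling (without Mmp2, Adamts1 and Adamts20), 7 under upper-quartile scaling (without Adamts1 and Adamts20), 10 with TPM or a pseudocount of 0.1, 11 with no filter and that pseudocount, and 7 to 10 when 1 mouse was left out. Adamts20 could not be tested under either scaling or without any 1 nAAC mouse, since its mean fell below the filter. The median log2 FC over all genes tested also moved, to 0.38 with TPM, 0.28 with a pseudocount of 0.1 and 0.09 under upper-quartile scaling. It was 0.22 on log2(FPKM + 1) of the deposited values. The share of all genes that were DEGs is given above for median-ratio scaling but not for the other alternatives, so these counts have no background beside them. The number of down-regulated members, 1, was 2 under median-ratio scaling, upper-quartile scaling, a pseudocount of 0.1, and no filter with that pseudocount, where Adamts7 joined Timp4. It was 0 without nAAC replicate 3, which drops Timp4, and 2 without nAAC replicate 5, which adds Adamts7. With a replicate block these numbers stayed at 9 and 1, and 12 higher and 2 lower by the adjusted p. With the Xist level as a covariate all 4 counts were the same, while the median log2 FC over all genes tested was 0.16. Mice with the same number did not deviate together (correlations 0.192, -0.0953, -0.316, -0.0329 and 0.0409 for numbers 1 to 5, and in no pair did a mouse match its own number best). This gave no sign of a pairing by number, although it cannot exclude one. By the adjusted p alone, Timp3 and Adamts15 were gained with TPM or without sham replicate 5, and Mmp11 under median-ratio scaling. By size, Mmp3 joined the up-regulated members with TPM (1.19), a pseudocount of 0.1 (1.46), no filter with that pseudocount (1.46), without nAAC replicate 5 (1.03) and without sham replicate 5 (1.001), and Adamts1 left them without nAAC replicate 4 (0.996). With nAAC replicates 2 and 3 both left out, which was chosen after the data were seen, 7 members were up-regulated, 9 with the filter lowered to 0.1 as well, and 0 were down-regulated with either filter, Timp4 being lost by size. The cause of these changes was not tested. The signs of 6 members that did not pass turned. Under median-ratio scaling the log2 FC was -0.067 for Adamts9, -0.145 for Adamts5, -0.040 for Adamtsl3, -0.090 for Mmp15 and -0.125 for Mmp28. Under upper-quartile scaling it was -0.064 for Adamts5 and -0.056 for Mmp28, with the Xist covariate -0.038 for Adamts5 and -0.237 for Mmp28, and with TPM 0.099 for Adamtsl4. Leaving out 1 mouse gave -0.060 to 0.215 for Adamts5, -0.131 to 0.054 for Adamtsl4 and -0.086 to 0.215 for Mmp28. No other tested member changed its sign or its side of the adjusted p under these alternatives. Depth limits the low members most: without counts, a level of 0 or near it has no sampling error here, and the 25 members below the filter cannot be called unchanged.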
